A study of Mus musculus with 2 samples.

Results

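The paternally expressed imprinted genes Peg3, Usp29, Mest, Peg10, Sgce, Snrpn, Ndn, Magel2, Nnat and Zdbf2 were followed in RNA sequencing counts of 46C embryonic stem cells. They were taken by symbol, through the GENCODE annotation of GRCm38, and are 10 of 46983 genes in the table. They lie in 6 imprinted domains, named after Peg3, Mest, Peg10, Snrpn, Nnat and Zdbf2. For the knockdown library, cells carried a viral vector with a hairpin directed at linc1557, a long noncoding RNA, and for the control library a control hairpin. 46C cells are mouse embryonic stem cells in which a fluorescent reporter marks Sox1 activity. Both cultures were kept on feeders with serum and LIF, the cytokine that holds such cells in self-renewal, and drug-resistant clones were used. The labels do not give the number of clones behind each library. The libraries held 26693282 counts (knockdown) and 23146210 counts (control). With 1 library per group there was no replicate check and no test, so bracketed intervals are 95% intervals for counting error only and do not cover the spread between cultures or clones. No row was matched to linc1557, so the knockdown itself was not checked.

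Imprinted genes are transcribed mainly from the copy inherited from a given parent. The choice is set by DNA methylation laid down at CpG sites of control regions in the germ line, and it is kept in the embryo by ZFP57, TRIM28 and the maintenance methyltransferase DNMT1. Many paternally expressed genes act in growth, placenta, brain and mesenchyme, and embryonic stem cells in culture are known to lose or gain imprints. Counts per gene do not separate the parental copies, so neither the expressed copy nor its methylation was measured here.

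Start regions are shown for the gene with the largest deficit in the knockdown library (Magel2) and for the gene with the largest excess (Nnat). They are also shown for Snrpn, at its RefSeq start in the control region of its domain, and for the pair Peg3 and Usp29. The last are transcribed away from each other from starts 147 bases apart, so that the 146 bases between them belong to both. Each stretch is read 5′ to 3′, and capitals mark CpG, the dinucleotide that carries the methylation. The Nnat, Magel2 and Snrpn stretches are the 150 bases just before the RefSeq start (GRCm38.p6).
Peg3-Usp29, chr7:6730432-6730577, plus strand: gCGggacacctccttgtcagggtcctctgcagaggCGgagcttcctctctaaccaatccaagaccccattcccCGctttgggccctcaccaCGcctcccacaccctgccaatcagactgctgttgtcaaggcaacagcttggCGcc
Nnat, chr2:157559928-157560077, plus strand: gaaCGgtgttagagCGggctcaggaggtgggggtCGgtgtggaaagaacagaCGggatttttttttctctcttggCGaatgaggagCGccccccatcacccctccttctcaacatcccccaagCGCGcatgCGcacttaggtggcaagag
Magel2, chr7:62376829-62376978, plus strand: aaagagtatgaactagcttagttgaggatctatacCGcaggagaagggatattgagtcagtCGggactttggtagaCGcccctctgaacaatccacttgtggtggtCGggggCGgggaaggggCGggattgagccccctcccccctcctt
Snrpn, chr7:60005200-60005349, minus strand: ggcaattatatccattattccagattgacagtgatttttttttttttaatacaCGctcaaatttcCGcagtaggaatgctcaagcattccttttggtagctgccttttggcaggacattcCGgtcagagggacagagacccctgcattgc
They hold 5, 9, 6 and 3 CpG. In windows of 300 bases (250 before and 50 after a RefSeq start), 8 of the 10 genes were matched in 14 windows, several genes having more than 1 start. Their CpG numbers ran from 2 at an upstream Snrpn start to 38 at the downstream Zdbf2 start, against a median of 7 over 32851 windows of mouse genes. Magel2 and Nnat, at the extremes of the expression comparison, had 10 and 17.

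The hexamer TGCCGC, the letters ZFP57 recognises, was searched on both strands and stood in windows of 4 of the 8 genes: Mest, Nnat, Snrpn and Zdbf2 (5 of 14 windows). The Mest windows that hold it, around starts at 30738050 and 30738053, overlap almost fully and have 2 copies each, so they are nearly the same sequence. The hexamer is present in 11.6% of all windows. Shares of all windows count windows, so numbers of genes cannot be set against them. CGCATGCG, a core of NRF1 sites chosen after the sequences had been seen, stood in windows of Ndn, Nnat and Snrpn (6 of 14 windows, 4 of them of Snrpn), and in 1.87% of all windows. A YY1 core, GCCATNTTG, was in none of the 14 windows and in 2.51% of all windows. Bases outside the windows were not searched, and Peg10 and Sgce had no window. In these windows 0 matches of different motifs overlapped. The genes holding TGCCGC include Nnat, Zdbf2 and Mest with a higher CPM in the knockdown library and Snrpn with a lower one, and the genes holding CGCATGCG likewise lay on both sides.

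The members differed between the libraries without a shared direction. Magel2 was 31.5-fold lower in the knockdown library, Nnat was 3.10-fold higher, and the other 8 differed by less than 2-fold. A gene was called when its ratio of TMM-scaled counts (set to a common scale by the trimmed mean over genes) was at least 2-fold and the interval excluded 1. By this rule 1 of 10 was lower and 1 of 10 higher. Of the 15850 genes that reached 1 CPM (counts scaled to a common library size) in either library, 9.48% were lower and 4.68% higher, and all 10 members were among them. The share called among the members is thus near that of all genes. At 1.5-fold, 4 of 10 were lower (16.4% of all entered genes) and 1 was higher (11.5%), and at 4-fold 1 was lower (2.45%) and 0 were higher (0.959%). Their median log2 ratio of knockdown over control was -0.37, beside 0.02 over all these genes, with 7 values below 0 and 3 above. The 8 uncalled genes spanned log2 ratios from -0.99 to 0.51. For 7 of these 8 the interval excluded 1, 5 below and 2 above, which shows a difference between these libraries larger than counting error but not whether cultures would differ.

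**Figure D1:**
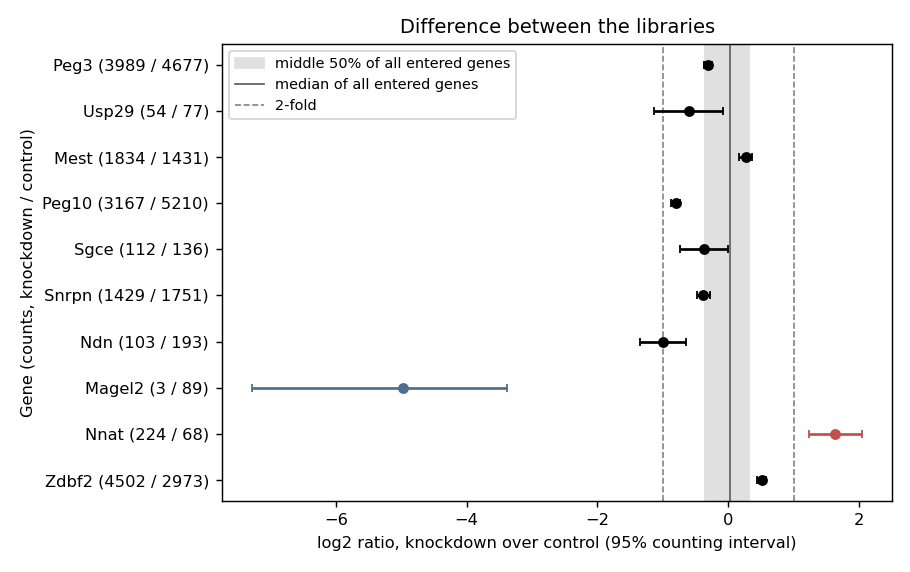
Log2 ratio of knockdown over control for each of the 10 genes, with the 95% counting interval and the counts of both libraries beside the name. The grey band is the middle 50% of all 15850 entered genes and dashed lines mark 2-fold. Magel2 lies far to the left at -4.98, Nnat to the right at 1.63, and Ndn beside the lower line at -0.99.

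Per gene length, the members formed a graded series. Levels were expressed as TPM, the count per base of the deposited gene length scaled to a fixed sum over all rows. In the control library Snrpn stood highest at 42.1 TPM (40.1 to 44.1) and Peg10 next at 40.6 (39.5 to 41.7), with overlapping intervals. Mest at 18.8 (17.9 to 19.8) and Peg3 at 18.2 (17.7 to 18.8) also overlapped, and Zdbf2 followed at 12.2 (11.8 to 12.6). Ndn (6.06), Nnat (1.93), Magel2 (0.991), Sgce (0.665) and Usp29 (0.489) were scarcer, and among these the intervals of Sgce and Usp29 overlapped. In the knockdown library the order was Snrpn (28.8 TPM), Peg10 (20.6), Mest (20.2), Zdbf2 (15.5), Peg3 (13.02), Nnat (5.32), Ndn (2.71), Sgce (0.459), Usp29 (0.287) and Magel2 (0.0280). There only Peg10 and Mest overlapped as neighbours. Zdbf2 and Peg3 thus stood in opposite order in the 2 libraries, and Magel2 was eighth in the control and last in the knockdown library. The deposited lengths of Ndn (1652 bases) and Usp29 (8170) are shorter than their exons in the annotation used here (3694 and 18078), and with the longer lengths their TPM would be lower, so their places in these orders are uncertain. Placed among all entered genes, Snrpn was at percentile 90.9 of TPM in the control library, Magel2 at 15.1 and Usp29 at 6.60.

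**Figure D2:**
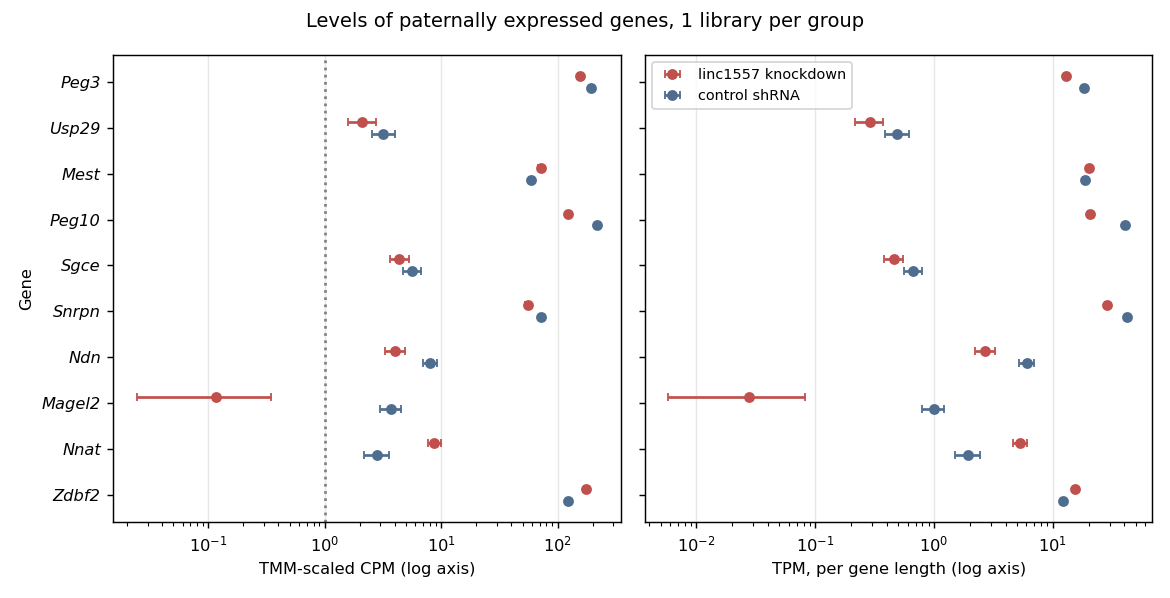
Level of each gene in the knockdown (red) and control (blue) library, as TMM-scaled CPM on the left and TPM on the right, both on log axes, with 95% Poisson counting intervals and a dotted line at 1 CPM. In TPM, 5 genes lie above 10 in both libraries and Magel2 is the only gene under 1 CPM in the knockdown library.

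The Snrpn domain on chromosome 7 held the widest difference. Magel2 (ENSMUSG00000056972, 62377010 to 62381640, plus strand) encodes a MAGE protein that works with TRIM27, USP7 and VPS35 in endosomal recycling and is mutated in Schaaf-Yang syndrome. It had 3 knockdown and 89 control counts, or 0.117 and 3.69 CPM. The log2 ratio was -4.98 (-7.28 to -3.38), a 31.5-fold lower level (10.4 to 156). Of all entered genes, 0.158% had an equal or lower log2 ratio. Magel2 reached 1 CPM in the control library only, so this rank describes its ratio and is no separate support for it. The wide interval comes from the 3 counts, and its nearer bound is still above 10-fold.

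Ndn (ENSMUSG00000033585, 62346569 to 62350262, plus strand) lies next to Magel2, with starts 30.4 kb apart, and encodes necdin, a related MAGE protein that restrains proliferation in neurons and mesenchymal progenitors. It had 103 knockdown and 193 control counts (4.02 and 8.003 CPM). The level was 1.99-fold lower (1.56 to 2.55), just under the size for a call. Scaling by total counts or thinning the deeper library put it past 2-fold. The log2 ratios of Ndn and Magel2 differed by 3.98 (2.29 to 5.68, counting interval), so these neighbours were not lower to the same extent.

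Snrpn (ENSMUSG00000102252, 59982495 to 60140219, minus strand) encodes SmN, a core protein of spliceosomal small nuclear ribonucleoproteins. The annotated start of the gene at 60140219, upstream of the start shown above, lies 2206 kb from that of Ndn. Snrpn had 1429 knockdown and 1751 control counts (55.8 and 72.6 CPM). Its log2 ratio was -0.38 (-0.48 to -0.28). Of its annotated exon bases, 34.1% are shared with other genes, chiefly Gm38393 (27.3%) and Snurf (10%) on the same strand. Reads of these 3 rows cannot be assigned with certainty, which also makes the per-length level of Snrpn uncertain. Gm38393 had 2516 and 3168 counts and a log2 ratio of -0.42, and Snurf 238 and 324 counts and -0.53. The 3 rows gave log2 ratios of similar size and the same sign, but with shared exons they are not independent readings.

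Further paternally expressed genes of this domain went both ways. Peg12, also called Frat3, whose product binds GSK3, had 19 knockdown and 64 control counts and was 3.58-fold lower (2.12 to 6.33). Peg12 reached 1 CPM in the control library only. Mkrn3, a ubiquitin ligase gene, lies between Magel2 and Peg12 and had 108 against 73 counts, a log2 ratio of 0.48 (0.04 to 0.93). Snhg14, the host of small nucleolar RNAs whose transcript runs antisense to Ube3a, had 1357 against 1351 counts and -0.08. Ube3a, the maternally expressed ubiquitin ligase of Angelman syndrome, had 5461 against 4436 counts and 0.21. In this stretch the ratios of Magel2, Ndn and Peg12 were thus below 1, while that of Mkrn3 was above 1.

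Nnat (ENSMUSG00000067786, chromosome 2, 157560078 to 157562522, plus strand) encodes neuronatin, a small membrane protein of the endoplasmic reticulum in neurons and endocrine cells. It had 224 knockdown and 68 control counts (8.74 and 2.82 CPM). The level was 3.10-fold higher (2.35 to 4.13), and 98.5% of entered genes had an equal or lower log2 ratio. Nnat sits inside Blcap, whose isoforms are expressed from the maternal copy in brain. Blcap had 532 and 483 counts and a log2 ratio of 0.05 (-0.13 to 0.23), so the host gene had no difference of that size. A predicted gene on the opposite strand, Gm23134, shares 4.76% of the Nnat exon bases and had 57 and 47 counts. None of the 11 entered neighbours within 500 kb was called, beside 9.48% lower and 4.68% higher of all entered genes.

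In the Peg3 domain, Peg3 (ENSMUSG00000002265, chromosome 7, 6703892 to 6730431, minus strand) encodes a large zinc finger protein of growth and maternal behaviour. It had 3989 knockdown and 4677 control counts (155.7 and 193.9 CPM). Its log2 ratio was -0.32 (-0.38 to -0.26). Usp29 (ENSMUSG00000051527, 6730578 to 6967219, plus strand), a ubiquitin-specific protease gene, had 54 and 77 counts (2.11 and 3.19 CPM). Its log2 ratio was -0.60 (-1.13 to -0.08). The 2 genes that share the start region shown above did not differ from each other beyond counting error, with a difference in log2 ratio of 0.28 (-0.22 to 0.79). Their levels were far apart, Peg3 standing 45.3 times above Usp29 per length with the knockdown and 37.3 times with the control hairpin. This ratio of levels rests on the deposited length of Usp29. Zim3 overlaps 14.3% of the annotated Usp29 exon bases on the opposite strand. Of 12 entered neighbours within 500 kb, Zim2, a maternally expressed zinc finger gene, was 2.29-fold higher (1.45 to 3.69) from 68 against 28 counts. Zim1, also maternally expressed, had 41 against 56 counts and a log2 ratio of -0.54 (-1.15 to 0.07).

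In the Peg10 domain on chromosome 6, Peg10 (ENSMUSG00000092035, 4747306 to 4760517, plus strand) derives from a retrotransposon gag and pol gene and is needed for the placenta. It had 3167 knockdown and 5210 control counts (123.6 and 216.0 CPM). The level was 1.75-fold lower (1.67 to 1.83). Sgce (ENSMUSG00000004631, 4674350 to 4747207, minus strand), the gene of epsilon-sarcoglycan and of myoclonus-dystonia, starts 99 bases from Peg10 in the opposite direction. Its counts were 112 and 136 (4.37 and 5.64 CPM). Its log2 ratio of -0.37 (-0.74 to 0.004) was the only member value whose interval included 0. The difference between the log2 ratios of Peg10 and Sgce was -0.44 (-0.80 to -0.07). Of 3 entered neighbours within 500 kb, the collagen gene Col1a2, a fibroblast marker, was 3.47-fold lower (3.29 to 3.67). Casd1, a sialic acid acetyltransferase gene between Col1a2 and Sgce, had 133 and 248 counts and a log2 ratio of -0.99 (-1.30 to -0.68). Ppp1r9a, beyond Peg10 and on the maternally expressed list, had 1833 and 1075 counts and 0.68 (0.57 to 0.79). Farther out, the maternally expressed genes Calcr, the calcitonin receptor, and Asb4 had 3 against 67 and 5 against 57 counts. They were 23.7-fold (7.78 to 118) and 12.1-fold (4.90 to 38.7) lower, and both reached 1 CPM in the control library only. The maternally expressed Tfpi2, Pon3 and Pon2 on the same chromosome were not called, at log2 ratios of 0.21, 0.22 and -0.72.

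Mest (ENSMUSG00000051855, chromosome 6, 30723547 to 30748465, plus strand), a hydrolase-fold gene of mesoderm and adipose growth, had 1834 knockdown and 1431 control counts (71.6 and 59.3 CPM). The log2 ratio was 0.27 (0.17 to 0.37). Copg2 ends opposite to it and shares 23.1% of the Mest exon bases. Copg2 had 1227 and 789 counts and a log2 ratio of 0.55 (0.42 to 0.68), and without a stated strand setting the reads of the shared stretch cannot be divided. None of the 8 entered neighbours was called, beside 9.48% lower and 4.68% higher of all entered genes.

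Zdbf2 (ENSMUSG00000027520, chromosome 1, 63273265 to 63314576, plus strand), a zinc finger gene with a role in feeding and growth, had 4502 knockdown and 2973 control counts (175.7 and 123.3 CPM). The level was 1.43-fold higher (1.36 to 1.49). A long form of Zdbf2 that begins upstream is known to be active in the early embryo and to set the later expression of the gene. RefSeq places this start at 63200358, in a window with 3 copies of TGCCGC. The noncoding gene Platr12 is annotated from 63200313, only 45 bases from it and 72.95 kb before the downstream start, on the same strand. Platr12 was the called gene among 8 entered neighbours, 2.21-fold higher (1.74 to 2.81) from 239 against 102 counts. Zdbf2 and the transcript at its upstream start thus had ratios in the same direction, and whether reads of the long form fell into the Platr12 row was not tested.

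**Figure D3:**
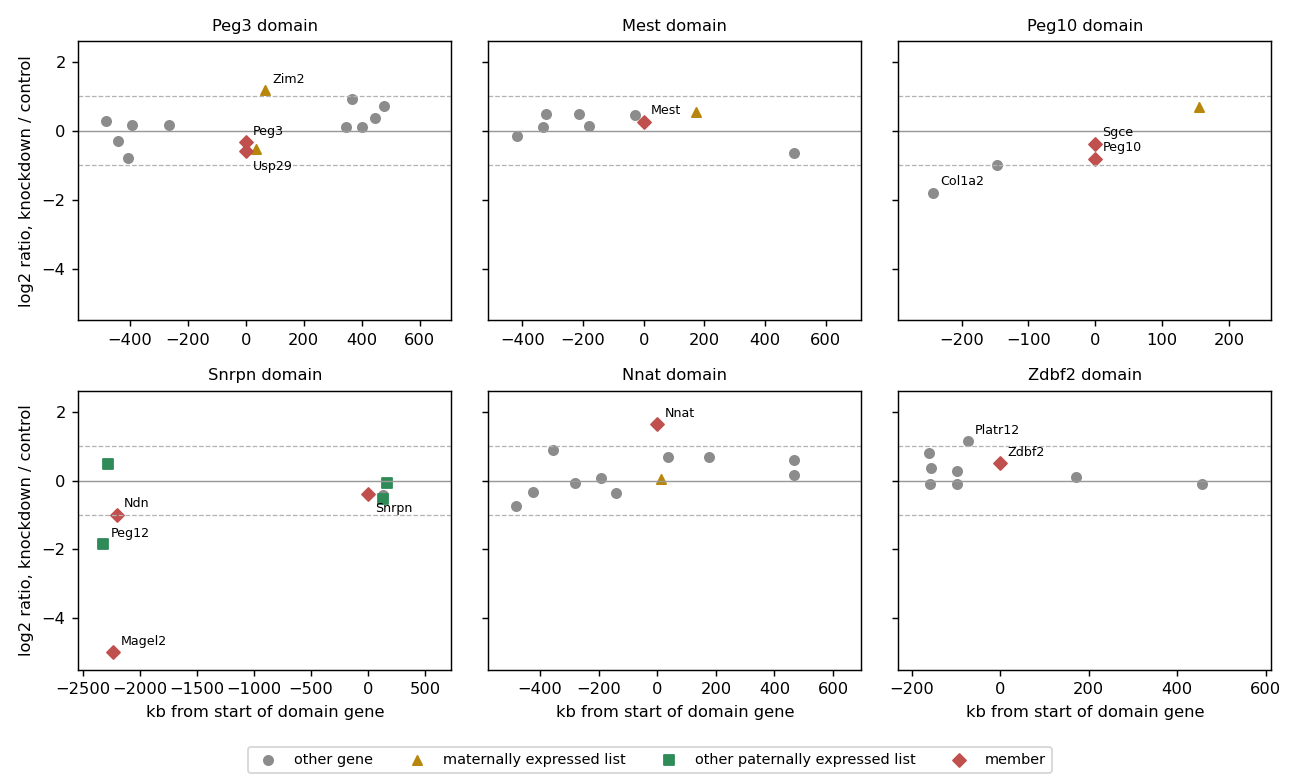
Log2 ratio of knockdown over control of every entered gene within 500 kb of a member, against its distance in kb from the start of the gene that names the domain, counted positive in that gene's direction of transcription. Dashed lines mark 2-fold and names are given for members and called genes. Neighbours mostly lie between the lines, and 2 were lower and 2 higher of 47, beside 9.48% lower and 4.68% higher of all entered genes.

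Across all 6 domains the 47 entered neighbours had a median log2 ratio of 0.11. Called genes were 2 lower (Col1a2 and Peg12) and 2 higher (Zim2 and Platr12) of 47, beside 9.48% lower and 4.68% higher of all entered genes. With so few neighbours per domain, calls or their absence there say little about how local a difference was. The chromosomes that carry the members had medians of 0.10 (chromosome 1), 0.09 (chromosome 2), -0.001 (chromosome 6) and 0.05 (chromosome 7).

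Of 52 other imprinted genes that entered, 13 were lower (25%, beside 9.48% of all entered genes) and 2 were higher (3.85%, beside 4.68%). Their median log2 ratio was 0.02. Of 17 entered genes on a list of further paternally expressed genes, the call was lower for 5 and higher for 1, with 11 uncalled and a median log2 ratio of 0.36. The lower ones were Sfmbt2, a Polycomb factor of the placenta (6.59-fold, 6.03 to 7.23), the fetal growth factor Igf2 (5.24-fold, 4.13 to 6.71), Peg12, the noncoding RNA Airn (2.88-fold, 1.72 to 5.01) and the NOTCH-like ligand Dlk1 (2.53-fold, 1.58 to 4.17). Plagl1, a zinc finger gene that regulates other imprinted genes, was 5.39-fold higher (3.77 to 7.90). Of 35 entered maternally expressed genes, 8 were lower and Zim2 was higher, with 26 uncalled genes and a median of -0.15. Besides Calcr and Asb4, the lower genes were Grb10, Cdkn1c, Phlda2, H19, Atp10a and Osbpl5, by 2.36- to 6.94-fold. Calcr, Asb4, Peg12 and Airn reached 1 CPM in the control library only, so they entered through the library where they were higher. Feeder fibroblast markers were lower in the same library, 21 of 32 with a median log2 ratio of -1.31, and their part in the lower values of these imprinted genes was not tested.

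Among 33 imprint regulators, a list that holds the TET genes besides genes that set or keep imprints, the call was lower for 2 and higher for 0. It was absent for 31, beside 9.48% lower and 4.68% higher of all entered genes, and the median log2 ratio was -0.003. The lower ones were Dnmt3b, a de novo methyltransferase (4.37-fold, 4.19 to 4.56), and Dppa3, which shields maternal methylation in the zygote (3.91-fold, 3.06 to 5.06). Zfp57 had 5695 and 3486 counts and a log2 ratio of 0.62, Trim28 -0.10, Dnmt1 0.55 and Uhrf1, which brings DNMT1 to replicated DNA, 0.07. Dnmt3l stood at -0.92, Dnmt3a at -0.76, Zfp42 at 0.47 and Yy1 at -0.36, all under 2-fold. Tet1, Tet2 and Tet3 had log2 ratios of -0.003, 0.86 and -0.48 and were not called.

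Relatives and partners of the proteins the members encode were mostly not called, as were most entered genes (9.48% lower and 4.68% higher of all). Of 9 MAGE family and partner genes besides Magel2 and Ndn, none was called. The MAGE genes Maged1 and Maged2 had log2 ratios of -0.51 and -0.80, and the Magel2 partners Trim27, Usp7 and Vps35 had -0.20, -0.42 and 0.41. Of 19 genes of the Sm core and the SMN complex that assembles it, Prmt5, the arginine methyltransferase that modifies Sm proteins, was 2.07-fold lower (1.94 to 2.21). Snrpb, the close relative of Snrpn, had 1778 and 1759 counts and a log2 ratio of -0.07 (-0.17 to 0.02). Of 9 entered genes of the sarcoglycan and dystrophin complex, Sgcb was 2.29-fold (1.63 to 3.28) and Sntb1 3.05-fold lower (2.09 to 4.53), with a median of -0.54. Of 9 matched relatives of Peg10 from the same retrotransposon family, 3 entered, and Rtl6, Rtl8a and Rtl8b had log2 ratios of -0.58, -0.41 and -0.67 without a call.

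Markers of the cell types the cultures could hold were read beside these values. Of all entered genes, 9.48% were lower and 4.68% higher. Of 32 feeder fibroblast markers, 21 were lower, none was higher and none was at 0 in either library. Their median log2 ratio was -1.31, and their summed level was 1127 CPM (knockdown) and 3115 CPM (control), 2.76 times as much in the latter. Fibroblasts express several of the members, among them Ndn, Peg3 and Mest, and in bulk RNA fewer cells of a type and less RNA per cell cannot be told apart. Of the members, Magel2, Ndn, Peg10, Peg3, Usp29, Sgce and Snrpn had lower values and Nnat, Zdbf2 and Mest higher ones. The part of feeder RNA in any of these values was not tested. Neural markers had 2 higher (Sox1, 7.66-fold, and Elavl4, 2.43-fold) and 1 lower (Nes, 2.13-fold) of 11 entered. Their median log2 ratio was -0.27, with 7 values below 0 and 4 above, and their summed level was 267.1 against 289.6 CPM. None of 14 pluripotency markers was called, with a median of 0.25, and their summed level was 3667 against 3029 CPM.

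**Figure D4:**
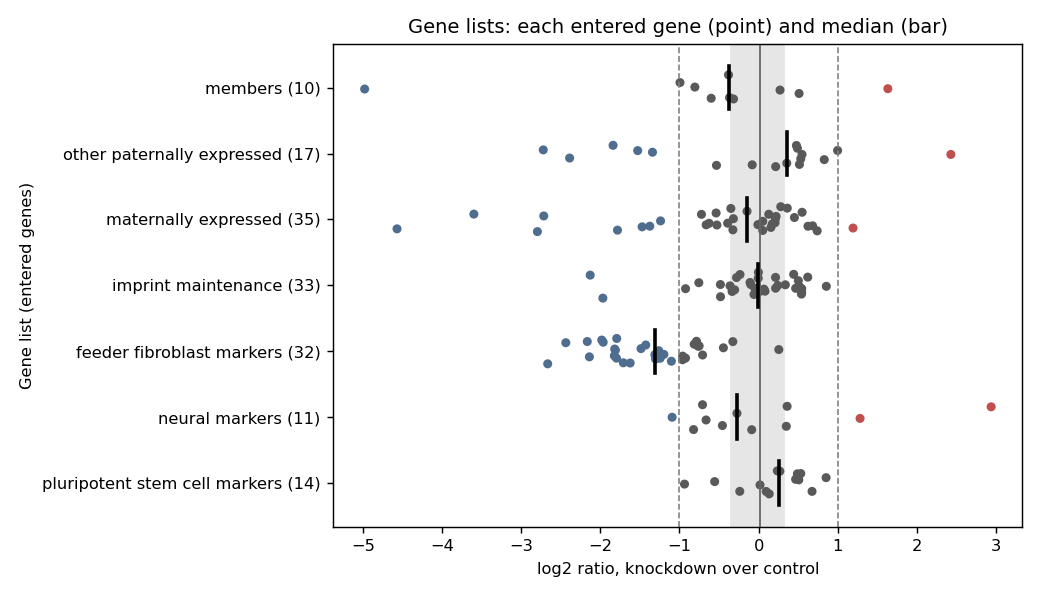
Log2 ratio of knockdown over control for each entered gene (point; blue lower, red higher, grey not called) and the median (bar) of the 10 members and 6 further lists, with the middle 50% of all entered genes shaded and dashed lines at 2-fold. The feeder marker median of -1.31 lies left of the 2-fold line and the other 6 medians lie between the lines.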

How the data were processed

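Reads were counted per gene in 1 knockdown and 1 control library, grouped by the genotype label. The deposited values are raw read counts, with a gene length column. Trim Galore, HISAT2, featureCounts and DESeq, and the builds mm10 and GRCm38, are named in the submitters' processing notes. Tool versions, annotation release, strandedness of the counting and the handling of reads in overlapping genes are not stated there. Symbols and coordinates came from GENCODE M21 (GRCm38), which matched 46488 of 46983 identifiers, including all 10 members. The deposited length equalled the annotated exon length for 6 of them.

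TMM factors (edgeR 4.0.16, R 4.3.3) were 0.960 and 1.04. In Python 3.11.15 with scipy 1.17.1, ratios were formed without a pseudocount for genes at 1 CPM or more in either library, with exact 95% Clopper-Pearson intervals. Where a library had 0 counts, 3 counts stood in as a floor, and genes at 3 or fewer counts in both libraries received no ratio. Intervals for levels are exact Poisson, and those for differences between members are normal approximations on log counts. They cover counting error only and treat reads as independent. The counts do not mark duplicate reads, so the intervals may be too narrow. TPM was computed from counts and the deposited length.

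The members and lists were chosen with earlier results of these data known. All members were named whatever their value, other lists by called genes or up to 4 of the most abundant, 10 imprint regulators by choice, and marker lists by up to 4 called genes. Genes near a member whose values bear on it, MAGE relatives, Casd1, Tfpi2, Pon2, Pon3, the TET genes and the exon-sharing genes were named after their values were seen. Alternatives were total-count, DESeq2 1.42.0 and nuclear protein-coding scaling, no filter, a 5 CPM filter, thinning of the deeper library, a prior count of 2, and calls at 1.5- and 4-fold.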

Additional observations from a re-analysis of the deposited data

How the results depend on the processing

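No member changed the sign of its log2 ratio under the 5 alternatives of scaling, prior count or thinning. Nnat ranged from 1.51 to 1.68 and Magel2 from -5.10 to -4.27. Total-count scaling moved the median of all genes by -0.12, and it put Peg3, Mest, Peg10, Snrpn and Zdbf2 outside their counting intervals. Members called lower were 2 instead of 1 with total-count scaling and with thinning, through Ndn. They were 0 with a 5 CPM filter, which Magel2 and Usp29 did not pass, and 4 at 1.5-fold, through Ndn, Peg10 and Usp29. Members called higher were 0 at 4-fold, which Nnat did not reach. Of all genes, 1815 of 15863 entered were lower with total-count scaling and 1488 of 15840 with thinning. A 5 CPM filter left 728 lower and 330 higher of 11534 entered. A 1.5-fold rule gave 2598 lower (16.4%) and 1817 higher (11.5%), and a 4-fold rule 389 (2.45%) and 152 (0.959%). Of 52 other imprinted genes, 13 were lower and 2 higher. These became 8 and 1 of 39 with a 5 CPM filter, 6 and 1 at 4-fold, and 16 and 7 at 1.5-fold. The imprint regulators had 4 lower and 2 higher at 1.5-fold and 1 lower at 4-fold. Feeder markers had 4 lower at 4-fold. Over nuclear protein-coding genes alone, TPM values were higher, as for Snrpn with 129.7 (knockdown) and 171.3 (control). No paired analysis was possible because each group had 1 library. Low counts limit Magel2, Usp29, Nnat, Sgce and Ndn, each under 300 counts in both libraries.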
